A study of Mus musculus with 6 samples.

Results

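The genes described here are inflammatory targets of NF-kB in KYSE30 cells, a long-established line of human esophageal squamous cell carcinoma. They are PTGS2, BIRC3, NFKBIA, IL1A and CXCL8. These are the 5 of 10 names (TNFAIP3, IL8, CXCL1, CXCL2 and IL1B being the others) found among the 4195 genes of the deposited table. They were taken by name, but the names were chosen with earlier results of these data known. The cells were wild type and grown with serum, and RNA was sequenced from 3 Control libraries and from 3 libraries of cells kept for 4 h with 100 uM acetylcholine (ACh), a neurotransmitter that acts on muscarinic and nicotinic receptors. The labels name no vehicle for the Control cells. They name mouse as the organism, but 4183 of the 4195 gene IDs are human Ensembl IDs. The table lists only genes with an unadjusted p under 0.05 in the authors' own comparison, so the other 5 names, like every unlisted gene, have no value here.

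NF-kB is a family of dimeric transcription factors, built from RELA, RELB, REL, NFKB1 and NFKB2, that is held in the cytoplasm by IkB proteins. Signals from cytokine and pattern receptors run through adaptors and ubiquitin ligases to the IkB kinases, after which IkB is degraded and the dimers enter the nucleus. NFKBIA encodes IkB-alpha, which binds the dimers and is itself a target of NF-kB, a feedback loop. PTGS2 encodes the inducible cyclooxygenase of prostaglandin synthesis, BIRC3 encodes cIAP2, a ubiquitin ligase that acts in signalling from tumour necrosis factor receptors and restrains cell death, IL1A encodes the cytokine interleukin-1 alpha, which squamous epithelial cells store, and CXCL8 encodes a chemokine that attracts neutrophils. No human sequence was used here, and none is printed.

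PTGS2, BIRC3 and IL1A rose with ACh, by 1.51-, 1.37- and 1.31-fold, and NFKBIA fell, to 0.896 of its Control mean. The calls of IL1A and NFKBIA were lost when a trend with base composition, described further on, was removed. CXCL8 was 1.22-fold higher in mean and did not pass. A gene was said to rise or fall where limma on log2(value + 1) over all listed genes and the authors' deposited table both gave an adjusted p under 0.05. The limma adjustment covers only listed genes, which were selected in this same comparison. In the authors' deposited table the adjusted p was 0.000454 for PTGS2, 0.00217 for BIRC3, 0.00574 for NFKBIA and 0.0313 for IL1A. Thus 3 of the 5 genes rose, where 28.8% of the listed genes did, and 1 of the 5 fell, where 35.0% did. The libraries are bulk RNA, in which a change in some cells and a smaller change in every cell cannot be told apart.

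PTGS2 (ENSG00000073756, chromosome 1, 186671791 to 186680427, coordinates as in the table, whose human build is not given in the sources used here) had normalised read counts of 225, 172 and 178 in Control and of 292, 313 and 263 in ACh. Every ACh library was above every Control library, and Control replicate 1 stood apart from the other Control libraries on the side of ACh. The means were 192 ± 28.9 and 289 ± 25.2 (SD, n = 3 each). The log2 fold change was 0.60 (standard error 0.11, adjusted p = 0.000151 by limma), the 15th largest among the 1207 listed genes that rose. Among all 4195 listed genes, passing or not, it was the 137th largest. Without Control replicate 1 it was 0.72, and it stayed between 0.53 and 0.72 when each library was left out in turn.

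BIRC3 (ENSG00000023445, chromosome 11, 102317450 to 102339403) had counts of 241, 237 and 228 in Control and of 337, 327 and 301 in ACh. The groups were farther apart than for any other of the 5 genes: the lowest ACh library was 24.9% above the highest Control library, against 16.9% for PTGS2, 11.2% for IL1A and 10.2% for CXCL8. The means were 235 ± 6.64 and 321 ± 18.6 (SD, n = 3), and the log2 fold change was 0.45 (standard error 0.088, adjusted p = 0.000272 by limma). BIRC2, which encodes the related ubiquitin ligase cIAP1 and begins 7.81 kb beyond BIRC3 on the same chromosome, went from 697 ± 29.3 to 812 ± 44.0 (SD, n = 3), a smaller rise of 0.22 on the log2 scale.

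IL1A (ENSG00000115008, chromosome 2, 112773915 to 112784590) had counts of 169, 212 and 199.6 in Control and of 272, 250.0 and 236 in ACh. Here Control replicate 1, the highest Control library for PTGS2, was the lowest. The means were 193 ± 22.3 and 253 ± 18.4 (SD, n = 3), and the log2 fold change was 0.39 (standard error 0.11, adjusted p = 0.00288 by limma). Removal of the GC trend took it to 0.17, where it did not pass (limma adjusted p = 0.279). CXCL8 (ENSG00000169429, chromosome 4, 73740506 to 73743716) had counts of 212, 196 and 223 in Control and of 276, 249 and 246 in ACh. Its means were 210.5 ± 13.9 and 257 ± 16.2 (SD, n = 3), with a log2 fold change of 0.29 and a standard error of 0.097. The limma adjusted p was 0.00951, but in the authors' deposited table the adjusted p was 0.103, so CXCL8 did not pass both.

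NFKBIA (ENSG00000100906, chromosome 14, 35401511 to 35404749) moved the other way and by less. Control libraries gave counts of 2632, 2692 and 2793, and ACh libraries 2377, 2399 and 2499.7. The highest ACh library lay below the lowest Control library, at a difference of -5.01%, and the SD within a group was of like size (3.02% in Control and 2.70% in ACh). The means were 2706 ± 81.7 and 2425 ± 65.4 (SD, n = 3), which is -0.16 on the log2 scale (standard error 0.037, adjusted p = 0.000927 by limma). With the libraries scaled to equal totals over the listed genes, which moved the median log2 fold change of all of them by 0.08, NFKBIA was at -0.078 and did not pass (limma adjusted p = 0.0797).

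**Figure D1:**
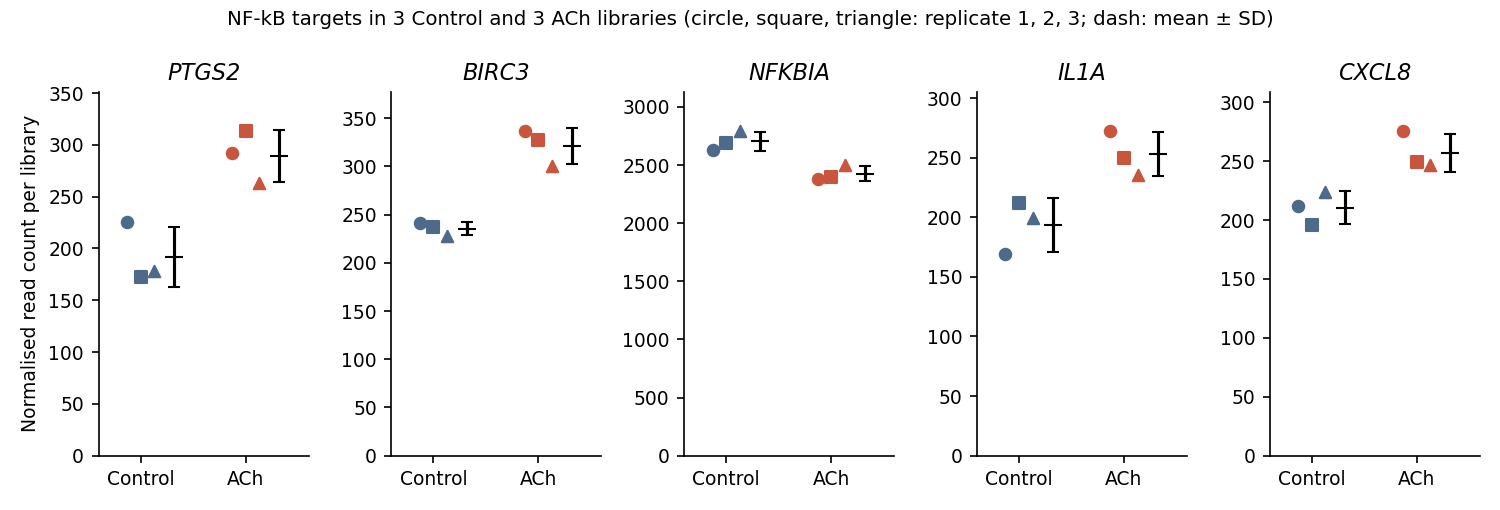
Normalised read count (y axis, from 0) of each of the 5 genes in the 3 Control (blue) and 3 ACh (red) libraries, with circles, squares and triangles for replicates 1, 2 and 3 and a dash with bars for the mean ± SD. The groups do not overlap for any of the 5 genes, with NFKBIA lower in ACh and the other 4 higher.

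The groups were thus separate for each of the 5 genes, 4 of them higher and 1 lower. In a table of genes selected for a difference this is the usual case, since 44.6% of the listed genes were higher without overlap and 48.3% lower without overlap. For a single gene the exact two-sided permutation test over 3 against 3 libraries gave p = 0.1 for each of the 5, the smallest it can give. The labels do not say whether replicates were separate cultures, so all p-values measure the spread between these libraries, which may be technical.

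Among the 5, NFKBIA was by far the most abundant. Levels of different genes were compared as normalised counts per kilobase of the gene length in the table. In Control they were 1140 ± 34.4 for NFKBIA, 92.6 ± 6.10 for CXCL8, 91.1 ± 10.5 for IL1A, 36.4 ± 5.48 for PTGS2 and 31.3 ± 0.883 for BIRC3 (SD, n = 3). The levels of CXCL8 and IL1A differed by less than their spread, and those of PTGS2 and BIRC3 by less than the SD of PTGS2. In ACh the levels per kilobase were 1022 ± 27.5 for NFKBIA, 119 ± 8.67 for IL1A, 113 ± 7.13 for CXCL8, 54.9 ± 4.79 for PTGS2 and 42.8 ± 2.47 for BIRC3. IL1A and CXCL8 again lay within their spread, and within each of the 6 libraries PTGS2 was above BIRC3.

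A ratio of 2 genes within a library does not depend on how the library was scaled. It still carries the trend with base composition, described further on, where the 2 genes differ in GC content. The GC content of the mouse genes named alike was 40.02% for PTGS2, 41.3% for IL1A and 46.6% for BIRC3, against 52.9% for NFKBIA. The ratios were not corrected for this trend. The log2 ratio of PTGS2 to NFKBIA was -3.54, -3.96 and -3.96 in Control and -3.02, -2.93 and -3.24 in ACh, a shift of 0.75. For BIRC3 over NFKBIA the shift was 0.60, from -3.52 ± 0.084 to -2.91 ± 0.12 (SD, n = 3). The ratio of NFKBIA to IL1A shifted by -0.55 and that of NFKBIA to CXCL8 by -0.44. Groups did not overlap in these 4 ratios, each with p = 0.1 by the exact two-sided permutation test, and p = 0.2 after adjustment over the 10 ratios of the 5 genes. This separation was fixed in advance, because NFKBIA was lower in every ACh library and the other gene of each ratio higher. It therefore adds nothing to the results on the single genes. Among the 4 genes that were higher, the ratios moved less: PTGS2 over BIRC3 shifted by 0.15 (exact permutation p = 0.3) and BIRC3 over IL1A by 0.059 (exact permutation p = 0.7), with overlapping groups in both. PTGS2 over CXCL8 shifted by 0.31 with overlap (exact permutation p = 0.2) and BIRC3 over CXCL8 by 0.16 without overlap (exact permutation p = 0.1, adjusted p = 0.2). With 3 libraries a group, these tests do not show that the 4 genes responded alike.

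Except for NFKBIA these genes lay low in the table. Their mean counts over the 6 libraries were 223 to 278, below the lower quartile of the listed genes (566), and a filter at that quartile removed all 4. Near such levels only large differences reach the table. Among the 161 listed genes with a mean within 1.2-fold of that of PTGS2 the smallest absolute log2 fold change was 0.25 and the median was 0.32. Of those 161 genes, 2 had a higher log2 fold change than PTGS2. For BIRC3 the number was 5 of 176, for IL1A 11 of 152 and for CXCL8 62 of 154. CXCL8 thus lay close to the edge of what the table could list, and PTGS2 and BIRC3 well above it. If the smallest step between values in a library is 1 read, PTGS2 rested on 170 to 277 reads per library, and counting alone gave an SD of 7.67% at the lowest, against a replicate SD of 15.04% of the mean in Control.

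**Figure D2:**
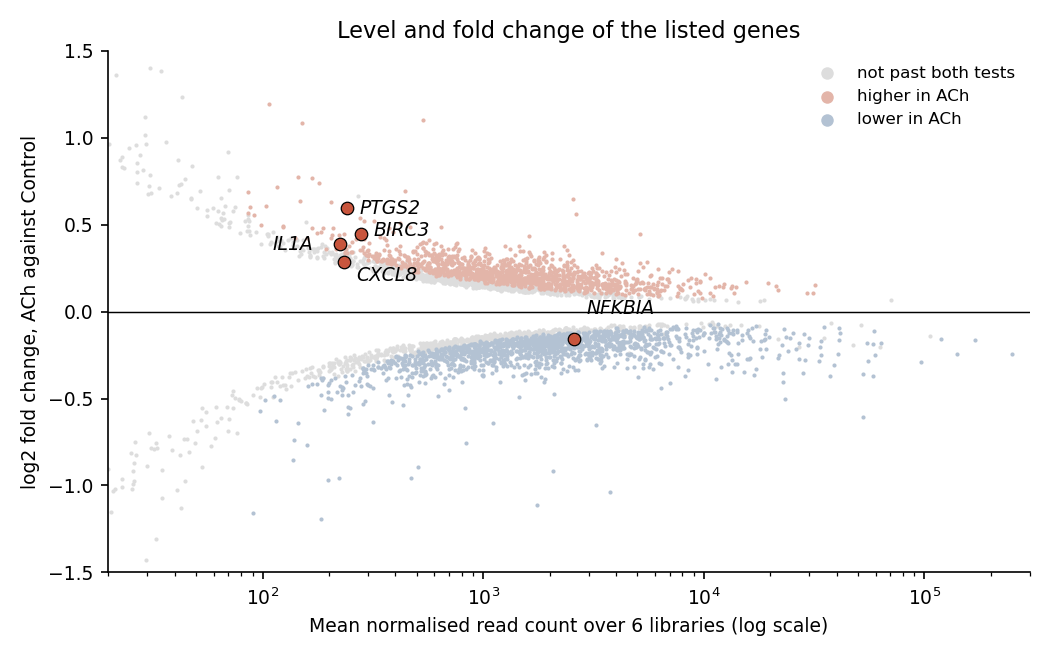
Log2 fold change of ACh against Control (y axis) against the mean normalised count over 6 libraries (x axis, log scale) for the listed genes, with those past both tests in red or blue and the 5 NF-kB targets marked. The empty band around 0 comes from the selection of the table at p under 0.05, and CXCL8 lies near its border while PTGS2 and BIRC3 lie above most genes of their level; 121 of 4195 genes fall outside the axes.

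Direction across the whole table followed base composition, and this moved with the results on the NF-kB targets. GC content was taken from the mouse gene that carries the symbol, which 4 of the 5 genes have, CXCL8 having none. It was 40.02% for PTGS2, 41.3% for IL1A, 46.6% for BIRC3 and 52.9% for NFKBIA. Of 798 listed genes with a GC content from 40% to 45%, 67.8% rose, and of 636 from 50% to 55%, 53.5% fell. NFKBIA was at the level of its neighbours: the 251 listed genes within 1 percentage point of its GC content had a median log2 fold change of -0.16. For the 252 genes around PTGS2 the median was 0.22, and 5 of them had a higher log2 fold change than PTGS2. For the 316 around BIRC3 the median was 0.18, with 9 above BIRC3, and for the 281 around IL1A it was 0.21, with 4 above IL1A. These neighbours had other expression levels, and larger changes are commoner among low genes.

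Once the GC trend had been taken out of each library, PTGS2 and BIRC3 still passed by limma and IL1A and NFKBIA did not. The authors' adjusted p, which a call also requires, belongs to the values before this removal and was not recomputed. Here limma was adjusted over the 3676 listed genes with a GC value. A wider adjustment, over all tests of the authors, was not tried together with this removal. The log2 fold change of PTGS2 became 0.37 (standard error 0.10, adjusted p = 0.0136 by limma) and that of BIRC3 0.29 (standard error 0.084, adjusted p = 0.0200 by limma). IL1A lost its call, as given above, and NFKBIA went to -0.041 (limma adjusted p = 0.47). After this removal 4.90% of the 3676 listed genes with a GC value were called higher and 5.82% lower. Of the 4 NF-kB targets with a GC value, 2 were called higher. The trend was fitted on listed genes only, which were selected for a group difference, so its size over all genes is unknown. These shares are not matched for expression level. The GC content is that of mouse genes, and the part of base composition in the changes of the human genes was not tested beyond this.

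**Figure D3:**
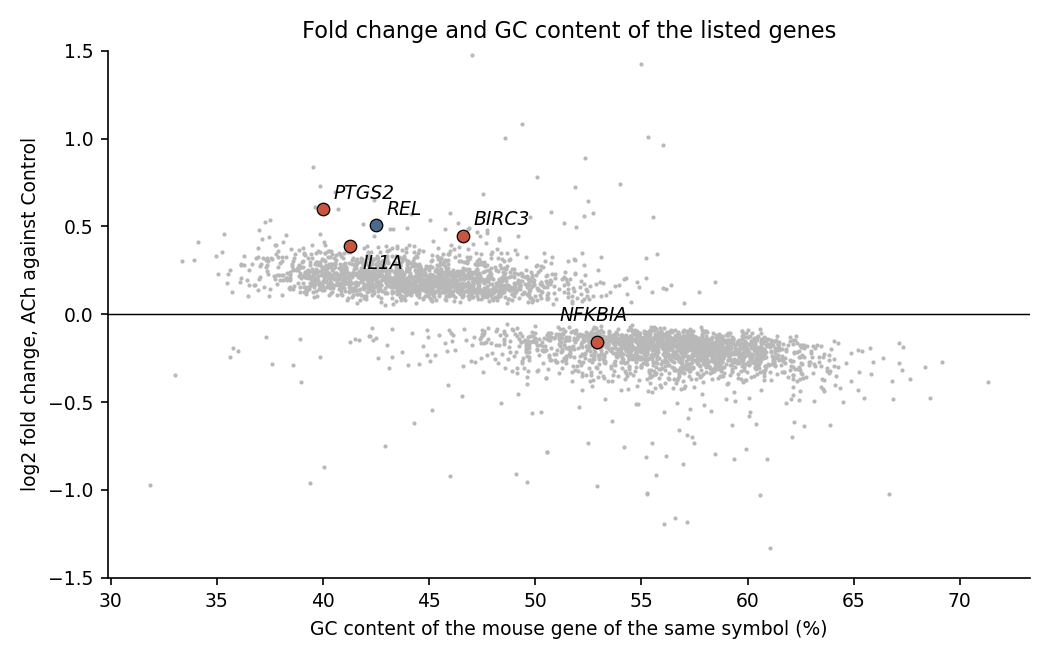
Log2 fold change (y axis) against GC content of the mouse gene named alike (x axis, percent) for 3676 listed genes in grey, with 4 NF-kB targets in red and the Rel family gene REL in blue; 17 genes lie beyond the y axis. Genes of low GC content lie mostly above 0 and those of high GC content below, with NFKBIA inside the lower cloud and PTGS2, BIRC3 and REL at the upper edge of the higher one.

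**Figure D4:**
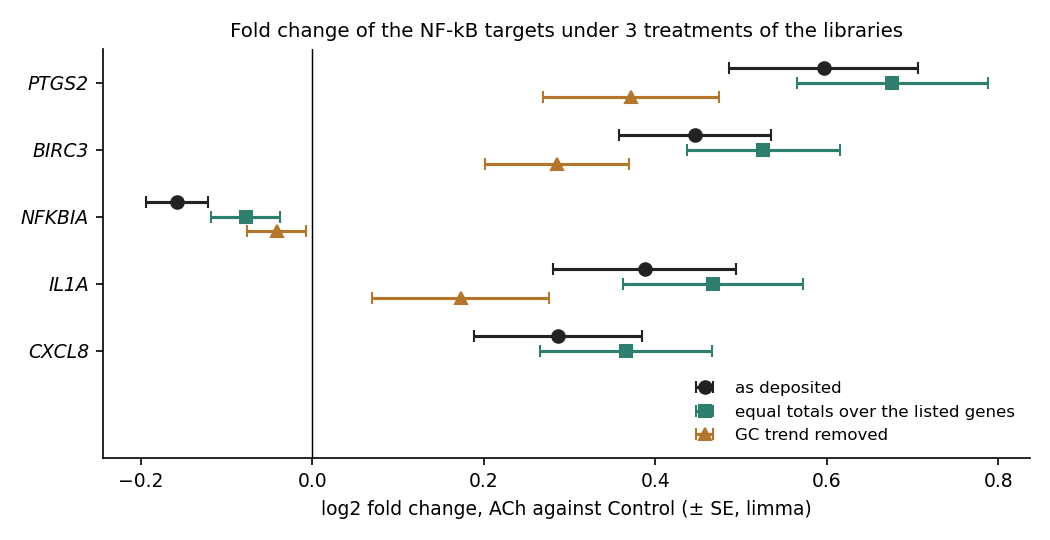
Log2 fold change of ACh against Control with its limma standard error (x axis) for the 5 NF-kB targets, with the values as deposited, with equal library totals over the listed genes and with the GC trend removed (no value for CXCL8). PTGS2 and BIRC3 stay well above 0 in all 3, and NFKBIA moves from -0.16 to -0.078 and -0.041.

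Of the 5 Rel family genes, REL, which encodes the subunit c-Rel, was the listed member, and it rose. Control libraries gave counts of 309, 364 and 362, and ACh libraries 464, 466 and 544, with every ACh library above every Control library. The means were 345 ± 31.4 and 492 ± 45.5 (SD, n = 3), and the log2 fold change was 0.51 (standard error 0.085, adjusted p = 6.64e-05 by limma). With the GC trend removed REL was at 0.30 and still passed (limma adjusted p = 0.0155). Its size was thus between those of PTGS2 and BIRC3. RELA, RELB, NFKB1 and NFKB2 have no value here, nor do the IkB kinase subunits CHUK, IKBKB and IKBKG.

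Lists of ligands and receptors, adaptors and ubiquitin enzymes, kinases, subunits and inhibitors held 99 names, of which 35 were listed: 14 rose and 13 fell, and the other 8 failed at least 1 of the tests. The shares over all listed genes were 28.8% higher and 35.0% lower, so the share of falls was near the background. Their median log2 fold change was 0.11, against -0.098 over all listed genes. Equal library totals left 7 falls, and removal of the GC trend left 2 genes called higher and 2 lower.

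Among 6 listed ligands and receptors 1 rose and 3 fell, beside 28.8% and 35.0% over all listed genes. IL1RAP, the accessory chain of the interleukin-1 receptor that IL1A signals through, went from 561 ± 58.1 to 704 ± 46.6 (SD, n = 3), which is 0.33 on the log2 scale, while TNFRSF12A, LTBR and TNFRSF21, receptors of the tumour necrosis factor family, had log2 fold changes of -0.20, -0.16 and -0.12. None of these 4 passed with the GC trend removed, where IL1RAP was at 0.12. TNFRSF1A, the main receptor of tumour necrosis factor, was at -0.095 and did not pass both tests.

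Among 16 listed adaptors and ubiquitin enzymes 4 rose and 7 fell, again near the shares over all listed genes. IRAK4, the kinase next to the interleukin-1 receptor, had a log2 fold change of 0.36, and MALT1, a paracaspase of another branch to NF-kB, of 0.35. FADD, the death receptor adaptor, went from 1481 ± 65.7 to 1198 ± 8.59 (SD, n = 3), which is -0.31. on the log2 scale RBCK1 and SHARPIN, subunits of the complex that builds linear ubiquitin chains, had log2 fold changes of -0.24 and -0.26. Once the GC trend was removed, FADD (-0.26) and IRAK4 (0.30) still passed by limma, as did IRAK1, the partner kinase of IRAK4, which fell (log2 fold change -0.22, then -0.10). MALT1, BIRC2, RBCK1 and SHARPIN did not, at 0.16, 0.020, 0.0059 and -0.058.

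Of the list of TAK1, its partners and related kinases, MAP3K7, TAB2, TAB3 and MAP3K1 were listed and all 4 rose. Over all listed genes 28.8% rose and 35.0% fell. The median GC content of the 4 was 46.7% in mouse, and of 714 listed genes from 45% to 50%, 47.9% rose. MAP3K7, which encodes TAK1, had a log2 fold change of 0.21, TAB3, which encodes a partner of TAK1, of 0.23, and MAP3K1 of 0.19. After removal of the GC trend none of the 4 passed, and their median log2 fold change went from 0.20 to 0.045. Of 8 listed inhibitors 4 rose and 3 fell, beside the same shares over all listed genes. NFKBIB, which encodes IkB-beta, went from 965 ± 26.4 to 804 ± 24.1 (SD, n = 3), which is -0.26 on the log2 scale, larger in size than that of NFKBIA. TNIP2 and NLRC5, further inhibitors, were at -0.18 and -0.23, and ITCH, OTUD4 and TAX1BP1, ubiquitin enzymes or their partners that restrain the pathway, at 0.28, 0.19 and 0.19. None of the 7 inhibitors that rose or fell kept its call once the GC trend was removed, and NFKBIB was then at -0.029.

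**Figure D5:**
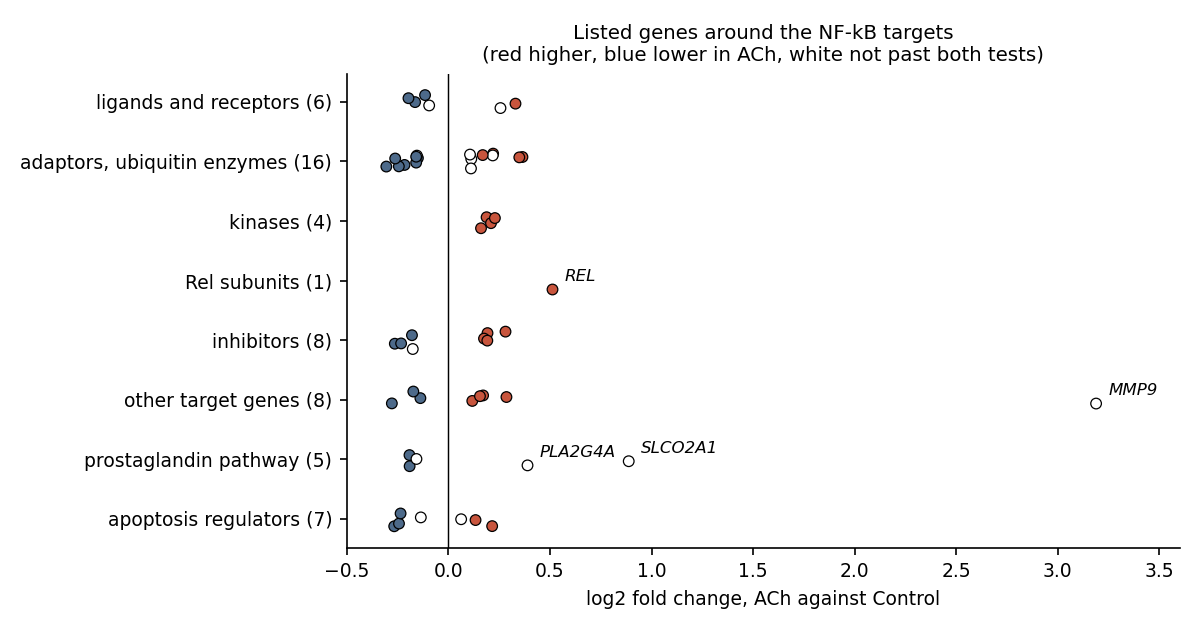
Log2 fold change (x axis) of each listed gene of 8 gene lists (rows, with the number listed; vertical scatter within a row has no meaning), red where the gene rose, blue where it fell and white where it did not pass both tests. The signalling lists hold genes on both sides of 0, with REL at 0.51 and MMP9, SLCO2A1 and PLA2G4A to the right without passing.

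Of 58 names of other genes known as NF-kB targets 8 were listed, of which 4 rose, 3 fell and 1 did not pass, beside 28.8% and 35.0% over all listed genes. SAT1, a polyamine acetyltransferase, was at 0.29, the tissue factor gene F3 at 0.17 and the protease inhibitor gene SERPINE2 at 0.16, while the sugar transporter gene SLC2A6, the early gene IER2 and the epithelial transcription factor gene ELF3 were at log2 fold changes of -0.28, -0.17 and -0.14. Of the 7 calls 0 were kept by limma after removal of the GC trend. The largest of the changes that passed was below those of PTGS2, BIRC3 and IL1A.

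Around PTGS2, 5 of 40 names of prostaglandin enzymes, receptors and transporters were listed, too few to describe the pathway. Of these 0 rose, 2 fell and 3 did not pass, against 28.8% and 35.0% of all listed genes that rose and fell. PTGES, the inducible prostaglandin E synthase that works next after the cyclooxygenase, went from 3841 ± 30.2 to 3363 ± 68.7 (SD, n = 3), which is -0.19. on the log2 scale PTGES2, another prostaglandin E synthase, also had a log2 fold change of -0.19. After removal of the GC trend PTGES was at -0.071 and PTGES2 at -0.025, and neither passed. PLA2G4A, the phospholipase that releases arachidonic acid, was at 0.39, close to IL1A, but at counts of 84.8 in Control and 111 in ACh it did not pass both tests.

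Around BIRC3, 7 of 31 names of apoptosis regulators were listed, of which 2 rose, 3 fell and 2 did not pass, close to the 28.8% and 35.0% over all listed genes. BIRC6, a large member of the inhibitor-of-apoptosis family, had a log2 fold change of 0.22 and the cytochrome c gene CYCS of 0.13. BAD, BAX and BCL2L12, of the BCL2 family, had log2 fold changes of -0.27, -0.24 and -0.24. None of these 5 kept its call with the GC trend removed, where BIRC6 was at 0.050 and CYCS at -0.085.

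For each of the 4 genes that passed both tests, the 3 protein-coding genes of similar level (mean within 4-fold) with the most similar profile over the 6 libraries were found by the root mean square difference of centred log2 values. For PTGS2, among 1479 genes, they were EGLN3, FAM126B and PUS7L, at 0.092, 0.093 and 0.097. EGLN3, which encodes an oxygen-sensing prolyl hydroxylase, went from 262 ± 17.2 to 377 ± 29.2 (SD, n = 3). For BIRC3, among 1695, GOLT1B was nearest at 0.034, followed by DYNLT3 at 0.046 and RFC3 at 0.055. For IL1A, among 1346, the nearest were TAF13, SNX16 and WDR72 at 0.057 to 0.062, and for NFKBIA, among 2813, WIZ, GNA11 and RRBP1 at 0.013 to 0.016. The profile of PTGS2 had no neighbour as close as those of BIRC3 and NFKBIA. All listed genes were selected for a group difference, which such profiles share.

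PTGS2, IL1A and CXCL8 are also expressed by leukocytes and fibroblasts, so markers of other cells were looked up. Of 14 leukocyte markers LAPTM5 was listed, at 17.7 to 21.3 in Control and 31.1 to 48.2 in ACh, where it did not pass both tests. Of 9 fibroblast markers COL1A1 was listed, at 146 to 194 in Control and 133 to 147 in ACh. Of 7 endothelial markers EGFL7 was listed, at 1052 to 1081 in Control and 818 to 970 in ACh. It passed both tests, with a log2 fold change of -0.28. The other markers have no value here, and the part of other cells in the results was not tested. Of 18 markers of squamous epithelium 6 were listed, and together they summed to at least 18846 normalised counts in every library. DSP alone gave 7871 to 8608 of these counts. TP63 and DSC3 rose, SOX2 and KRT15 fell, and DSG3 and DSP did not pass both tests. Over all listed genes 28.8% rose and 35.0% fell.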

How the data were processed

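RNA of 3 Control and 3 ACh samples was prepared for sequencing, per the labels' protocols, by means of the SMARTer mRNA-seq chemistry. Bowtie 0.12.2 stands in the submitters' processing notes beside mm8 and mm10, which are mouse builds, but the table holds human genes, and for these a build or counting tool is not given in the sources used here. The values were deposited as a signal and were taken here to be normalised read counts, with each library divided by 1 factor. All values in each library were whole multiples (within 0.1) of 1 step, read from the values. The listed genes summed to 10519515 to 11468978 normalised reads per library, and the sequencing depth is unknown. Per the file headers, the table also holds log2 fold changes, p-values and adjusted p-values computed by the authors, and their adjusted p was exactly 1 for 234 low genes, which could not pass. The gene lengths in bases are deposited values too.

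Groups were compared by limma-trend (limma 3.58.1, R 4.3.3) on log2(value + 1), with no covariate and no filter, and p-values were adjusted by Benjamini-Hochberg over 4195 genes, with 0.05 as the limit. The script was tested on simulated data. Because limma runs on the libraries that selected the table, it is no independent support for the authors' calls. GC content came from GENCODE M21 (the longest coding transcript of a mouse gene sharing the symbol), found for 3676 genes (87.6%). Its trend was fitted on these listed genes and removed per library by local regression with a span of 0.3. Genes other than the 5 targets were named by rule: up to 3 per direction from each of 8 gene lists, by size among those past both tests, with all listed Rel and IkB kinase subunits, and the 3 nearest profiles. A few genes outside the rule were named after their values were seen (IRAK1, TAB2, TNFRSF1A, PLA2G4A, MMP9, SLCO2A1 and the markers of squamous epithelium and of other cells). The neighbours in level and GC content were added then too. The genes and lists were chosen with earlier results of these data known. Other software was Python 3.11.15 with pandas 2.3.3, Matplotlib 3.10.9, statsmodels 0.14.6 and SciPy 1.17.1. Tried as alternatives were a lower-quartile filter, a pseudocount of 0.1, equal totals, removal of the GC trend, a replicate block, a wider adjustment and leaving out each library.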

Additional observations from a re-analysis of the deposited data

How the results depend on the processing

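PTGS2 and BIRC3 kept their direction and passed under all 12 alternatives that gave them a value. IL1A did so under 10 and NFKBIA under 10, and CXCL8 did not pass under any of 10, since the adjusted p in the authors' deposited table was required throughout. Several alternatives hardly changed the calls of any listed gene. With a pseudocount of 0.1 and with the replicate block 1207 genes were called higher, and with the wider adjustment 1202, against 1207. Passing under these says little about PTGS2 and BIRC3 in particular. NFKBIA no longer passed with equal totals (-0.078) or with the GC trend removed (-0.041), and IL1A with the GC trend removed (0.17); each value was the same with the replicate block added to that removal, and the cause was not tested. The lower-quartile filter left NFKBIA alone among the 5. With the GC trend removed 180 listed genes were called higher and 214 lower, against 1207 and 1470, and 259 and 263 with the replicate block in the same fit; of 1106 higher and 1354 lower calls on the same genes, 128 and 201 were kept. Equal totals left 1207 higher calls and 990 lower ones, so that the higher share of calls went from 45.1% to 54.9% through the loss of falls alone; higher calls could not grow, as the authors' adjusted p was required. With equal totals falls numbered 7 in NF-kB signalling and 1 among other targets. With the GC trend removed, NF-kB signalling held 2 higher and 2 lower calls, and other targets and apoptosis regulators 0 in each direction, as did prostaglandin genes among falls (0).

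Leaving out each library gave log2 fold changes of 0.53 to 0.72 for PTGS2, 0.41 to 0.49 for BIRC3, -0.18 to -0.13 for NFKBIA, 0.29 to 0.46 for IL1A and 0.24 to 0.33 for CXCL8, and no call of these genes changed. That was the usual case: 1192 to 1205 listed genes were then called higher and 1453 to 1465 lower, against 1207 and 1470. The authors' adjusted p, required for each call, still came from all libraries. The shift of the ratio to NFKBIA ranged from 0.68 to 0.89 for PTGS2 and from 0.56 to 0.67 for BIRC3. Samples of equal number correlated at 0.0821, 0.0555 and 0.0471 in their deviations over genes, under 0.1, so the numbers were not taken to pair them, although each sample correlated best with its own number. The replicate block alone kept all 1207 and 1470 calls, with PTGS2 at 0.60 (limma adjusted p = 4.58e-05). The count tests planned on recovered reads were not run, because the Control libraries held too few low values to accept the recovery. Depth limits PTGS2, BIRC3, IL1A and CXCL8 most, which rested on 170 to 314 steps per library.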

Other observations

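MMP9, which encodes a matrix metalloproteinase and is a known NF-kB target, had the highest log2 fold change among the genes of the fixed lists, 3.19. Control libraries gave normalised counts of 0, 0 and 5.37, and ACh libraries 5.36, 6.79 and 96.4. The groups overlapped, and the difference in means rested on ACh replicate 3. Its adjusted p was 1 in the authors' deposited table, so it did not pass both tests. PTGS2, BIRC3 and CXCL8 were lowest in that same replicate among the ACh libraries, as was IL1A.

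SLCO2A1, which encodes a prostaglandin transporter, had counts of 18.8, 20.3 and 9.98 in Control and of 30.02, 27.2 and 32.5 in ACh, without overlap. Of all listed genes 44.6% were higher without overlap. Its log2 fold change was 0.89 (0.98 with the GC trend removed), in the same direction as that of PTGS2. PTGES and PTGES2, the prostaglandin genes that passed, went the other way, both at -0.19, and the median of the listed prostaglandin genes was -0.16. The authors' deposited table gave it, too, an adjusted p of 1, and counts this low rest on few reads.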
